A study of Mus musculus with 23 samples.

Results

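The Notch receptors, ligands and targets described here are 10 genes of the 24063 listed in each count table, chosen by name: the receptors Notch1, Notch2 and Notch3, the ligands Dll1, Dll4, Jag1 and Jag2, the DNA-binding factor Rbpj and the targets Hes1 and Hey1. All 10 were found. They were measured in 23 RNA-seq libraries of mouse cells sorted as CD138+B220-, the surface phenotype of plasma cells. Controls were 3 bone marrow libraries, from mice listed with IgG1-Cre and no other allele. The tumours VQ-D5, VQ-D4, VQ-D2 and VQ-D1 have the genotype Vκ*MYC; NrasLSL Q61R/+; IgG1-Cre, so the Cre of the controls is shared by these 4 lines. The donor line t-VK12653 is labelled Vκ*MYC alone, with no Cre and no Nras allele. Ages are not given. Each line has 4 libraries, from cells of recipient mice that had received its donor cells by transplantation. In the order in which values are given, these were bone marrow, spleen, bone marrow and spleen for VQ-D1 and t-VK12653, 2 spleens and 2 lymph nodes for VQ-D2, 2 bone marrows and 2 lymph nodes for VQ-D5, and bone marrow, liver, spleen and lymph node for VQ-D4. IgG1-Cre acts in B cells that switch to that immunoglobulin class, and the Vκ*MYC transgene is driven by kappa light chain elements. Each line stands for 1 donor, and by the recipient numbers in the table names its libraries come from 2 recipients. The n of a line therefore counts libraries, and p-values between groups measure the spread between libraries. Where a call was lost when the libraries of each recipient were added up, in a fit with no tissue term, this is given beside it.

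Notch receptors sit on the cell surface and are cut when a Delta-like or Jagged ligand on a neighbouring cell pulls on them. The freed intracellular part enters the nucleus, joins Rbpj and a Mastermind protein on DNA, and switches on genes such as those of the Hes and Hey repressor families. Without it, Rbpj sits with corepressors. In the B lineage, Notch2 with Dll1 is known for its part in marginal zone B cells, and in human myeloma Jag2 and Notch signalling between tumour and marrow stroma have been studied as growth signals.

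The bases before the starts of Notch1, Notch2 and Dll4 are shown because Notch1 and Notch2 are the receptors with the most reads and Dll4 is the member whose liver value stands apart. They come from RefSeq, build GRCm38.p6, are written 5′ to 3′ on the gene's strand, and stop before the first annotated exon base; capitals mark each CG pair. The windows are chr2:26503825-26504072 (minus strand) for Notch1, chr3:98013288-98013526 (plus strand) for Notch2 and chr2:119325534-119325783 (plus strand) for Dll4. The Notch1 stretch precedes the RefSeq start; GENCODE, whose gene span is used for the locus of Notch1 given with its values, also has a transcript from a start farther upstream (26516663), so by that span the stretch lies inside the gene.
Notch1: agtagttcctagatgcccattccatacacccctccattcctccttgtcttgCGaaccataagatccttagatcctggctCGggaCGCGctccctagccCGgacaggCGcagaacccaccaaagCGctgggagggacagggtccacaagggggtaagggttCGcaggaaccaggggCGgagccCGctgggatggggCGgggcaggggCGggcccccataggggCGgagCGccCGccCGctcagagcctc
Notch2: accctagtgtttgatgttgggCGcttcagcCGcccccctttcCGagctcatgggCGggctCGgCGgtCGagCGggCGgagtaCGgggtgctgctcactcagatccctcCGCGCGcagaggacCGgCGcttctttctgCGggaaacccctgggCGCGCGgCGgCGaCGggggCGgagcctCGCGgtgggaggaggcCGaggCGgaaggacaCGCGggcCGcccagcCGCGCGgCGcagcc
Dll4: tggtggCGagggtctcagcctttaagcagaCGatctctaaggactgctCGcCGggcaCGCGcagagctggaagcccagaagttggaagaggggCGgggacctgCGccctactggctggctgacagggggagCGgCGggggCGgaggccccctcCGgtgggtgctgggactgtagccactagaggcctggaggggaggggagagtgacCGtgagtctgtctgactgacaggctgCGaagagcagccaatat
The 239 bases of Notch2 hold 34 CG pairs, against 16 in 248 bases of Notch1 and 14 in 250 bases of Dll4. In the RefSeq table, 8 of the 10 genes had an entry, with 10 starts in all. The targets Hes1 and Hey1 had none, so their promoters were not searched. The letters GTGGGAA, a core of the recognition sequence of Rbpj, were searched on both strands in the 250 bases before each start. They stood in none of the 10 windows and in 5.42% of 32851 windows of the same length. The shorter letters TGGGAA, which every GTGGGAA contains, stood in 2 of the 10 windows, both of starts of Rbpj, and in 21.6% of all windows. These 2 windows overlap, and the only hit of the later window is also a hit of the earlier. Several of the 10 windows overlap annotated exons of their gene. The later Rbpj window and that of Jag2 do so over all 250 bases.

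Total counts ran from 2685579 to 10047314 per library (median 4626666), and CPM values are counts scaled by TMM to a common library total. Plasma cell markers (Sdc1, Prdm1, Irf4, Xbp1 and 4 others) summed to 34730 to 64600 CPM in controls and 4346 to 15410 CPM in the tumour libraries other than liver, with none of the 8 at 0 in any library. Most of the control sum was Igj, at 29950 to 57530 CPM against 15.7 to 10480 CPM in these tumour libraries. The tumour ranges of Sdc1, Prdm1, Irf4, Xbp1, Tnfrsf17 and Mzb1 overlapped the control ranges, and Slamf7 was lower in every tumour library. Markers of other cells differed between groups in both directions. In controls the B cell marker sum was 267 to 497 CPM against 0.824 to 7.68 CPM in tumours, the T and NK cell sum 54.9 to 74.3 CPM against 0.479 to 4.88 CPM, and the neutrophil sum 3102 to 8545 CPM against 3.10 to 1139 CPM. In controls no B cell, T and NK cell or neutrophil marker was at 0. In tumour libraries up to 6 of 7 B cell, 7 of 8 T and NK cell and 6 of 10 neutrophil markers were at 0. Endothelial markers summed to 123 to 352 CPM in VQ-D1 against 54.9 to 73.3 CPM in controls and 9.46 to 51.5 CPM in the other lines, with Pecam1 at 345.5 CPM in the VQ-D1 library of the highest sum. Monocyte and macrophage markers had a median of 1140 CPM in VQ-D4 and 1095 CPM in t-VK12653, 742.8 CPM in controls and 25.4 CPM in VQ-D5. The markers of this list went different ways. Ly6c2 reached 1380 CPM in tumours against 119 to 366.4 CPM in controls, and Cd68 and C1qb also passed the highest control in some libraries. Lyz2, Csf1r, C1qa, C1qc and Vcam1 were lower in every tumour library than in every control. Stromal markers ran from 51.8 to 78.1 CPM in VQ-D2 and from 22.3 to 58.7 CPM in controls. In tumours Kitl reached 71.8 CPM and Lepr 24.3 CPM, against at most 3.07 and 3.24 CPM in controls. Cxcl12 went the other way, at 0 to 17.8 CPM against 16.3 to 41.95 CPM in controls. The remaining stromal markers were at 7.40 CPM or less in any tumour library. The part of these cells in the values of the 10 genes was not tested, and in bulk RNA fewer cells of a type cannot be told apart from less RNA per cell.

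Per unit of gene length, in the deposited TPM, Notch1 and Notch2 led the 10 genes in controls, at 31.6 and 31.3 TPM (means, n = 3). Rbpj followed at 10.7 TPM and Hes1 at 4.73 TPM, and the other 6 genes were between 0.220 and 1.58 TPM. The order differed between lines. Notch2 was highest in VQ-D1 (8.15 TPM), VQ-D2 (36.6 TPM) and VQ-D5 (32.8 TPM). Hes1 was highest in VQ-D4 (30.97 TPM) and t-VK12653 (19.1 TPM). Jag2 reached 21.3 TPM in VQ-D5 and 9.13 TPM in VQ-D2, the highest ligand values outside the liver library.

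**Figure D1:**
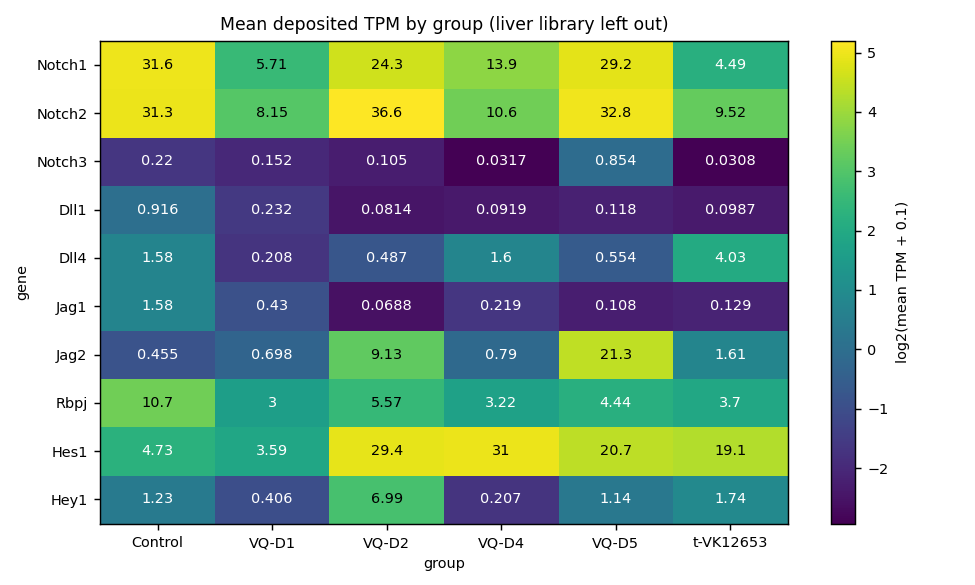
Mean deposited TPM (scaled to gene length and depth) of each of the 10 genes (rows) in each group (columns), with the liver library left out; colour is log2(mean TPM + 0.1) and the printed numbers are means over 3 or 4 libraries. Notch1 and Notch2 are bright in Control, VQ-D2 and VQ-D5, and Hes1 in VQ-D2, VQ-D4, VQ-D5 and t-VK12653.

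Notch1 (chr2:26457903-26516663, minus strand, GRCm38), a receptor best known from T cell development, fell in 4 of the 5 lines. Notch1 stood at 129.7, 134 and 107 CPM in the 3 controls. VQ-D1 held 18.5, 16.3, 27.9 and 25.6 CPM, VQ-D2 65.6, 80.7, 93.5 and 105 CPM, and VQ-D4 (bone marrow, spleen, lymph node) 55.04, 76.6 and 57.9 CPM. In VQ-D5 the values were 103, 127, 110.3 and 142 CPM, and in t-VK12653 19.6, 24.6, 18.3 and 24.4 CPM. Every library of VQ-D1 and t-VK12653 lay below every other library, and VQ-D5 overlapped the controls. Against 124 ± 14.8 CPM (SD, n = 3) in controls, VQ-D1 averaged 22.1 ± 5.56 CPM (SD, n = 4) and t-VK12653 21.7 ± 3.26 CPM (SD, n = 4). The log2 fold change against control was -2.50 (adjusted p = 1.30e-09, SE 0.20) in VQ-D1 and -2.55 (adjusted p = 1.94e-09, SE 0.21) in t-VK12653. It was -1.07 (adjusted p = 2.14e-04, SE 0.21) in VQ-D4 and -0.69 (adjusted p = 0.0101, SE 0.22) in VQ-D2. VQ-D5 did not pass the test, at -0.17 (adjusted p = 0.450, SE 0.19). In the order of levels, the neighbours Control and VQ-D5, VQ-D2 and VQ-D4, and VQ-D1 and t-VK12653 did not differ past the threshold. The step from VQ-D4 down to VQ-D1 was 1.43 on the log2 scale (adjusted p = 4.22e-06), and VQ-D2 lay below VQ-D5 at -0.52 (adjusted p = 0.0225, SE 0.17). The call between VQ-D2 and VQ-D5 was lost without VQ-D2 replicate 1, VQ-D5 replicate 2 or VQ-D5 replicate 4 (highest adjusted p = 0.0865), and on sums per recipient (adjusted p = 0.0656). That between VQ-D2 and VQ-D4 was gained without VQ-D2 replicate 1 (adjusted p = 0.0323) or VQ-D4 replicate 3 (adjusted p = 0.0146). Exons of 2 antisense transcripts, 0610009E02Rik and Gm13568, overlap Notch1, and with the strand setting of the counting unknown (not given in the sources used here) their reads cannot be told apart.

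Notch2 (chr3:98013527-98150361, plus strand), the receptor of marginal zone B cells, fell in 3 lines and was high in the other 2. The controls held 90.8, 229 and 87.5 CPM of Notch2. Values were 149.7, 149, 143 and 158 CPM in VQ-D5, 137, 161, 132 and 149 CPM in VQ-D2 and 54.2, 44.2, 54.96 and 48.5 CPM in t-VK12653. They were 38.3, 31.5, 34.7 and 35.5 CPM in VQ-D1 and, from bone marrow, spleen and lymph node, 46.9, 60.01 and 53.7 CPM in VQ-D4. All libraries of VQ-D2 and VQ-D5 lay above all libraries of VQ-D1, VQ-D4 and t-VK12653. The controls spread widely, since replicate 2 held 229 CPM and the others 90.8 and 87.5 CPM; replicate 2 also had the highest control sums of neutrophil (8545 CPM) and monocyte and macrophage (1490 CPM) markers, whose part was not tested. Against control the log2 fold change was -1.94 (adjusted p = 4.44e-06, SE 0.26) in VQ-D1, -1.42 (adjusted p = 1.29e-04, SE 0.26) in t-VK12653 and -1.33 (adjusted p = 7.04e-04, SE 0.28) in VQ-D4. VQ-D2 and VQ-D5 did not pass the test, at 0.12 (adjusted p = 0.734, SE 0.28) and 0.15 (adjusted p = 0.630, SE 0.25). Without control replicate 2 both rose, with adjusted p = 2.26e-04 for VQ-D2 (log2 fold change 0.71) and adjusted p = 4.84e-05 for VQ-D5 (0.73). The VQ-D4 call was lost in bone marrow libraries alone (adjusted p = 0.0621) and on sums per recipient (adjusted p = 0.0628), as was the call between VQ-D2 and VQ-D4 on those sums (adjusted p = 0.0508). The difference between VQ-D1 and VQ-D5 was -2.09 (adjusted p = 9.05e-07, SE 0.25), and that between VQ-D1 and VQ-D2 -2.07 (adjusted p = 1.31e-06, SE 0.25). Between VQ-D1 and t-VK12653 it was -0.52 (adjusted p = 0.0648, SE 0.23) and between VQ-D1 and VQ-D4 -0.62 (adjusted p = 0.0604, SE 0.25); both passed the threshold when any 1 control was left out, with adjusted p = 0.0400 and 0.0358 at most.

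Notch3 (chr17:32120820-32166852, minus strand), a receptor best known from vascular smooth muscle, was near the detection limit everywhere except VQ-D5. Control libraries showed 1.30, 0.341 and 0.525 CPM of Notch3. Those of t-VK12653 showed 0.215, 0, 0 and 0.274 CPM and those of VQ-D5 1.92, 2.52, 4.85 and 2.56 CPM. Notch3 came to 0, 1.30, 0 and 0 CPM in VQ-D2, 0.494, 0, 0.483 and 0.976 CPM in VQ-D1 and 0.378, 0 and 0 CPM in bone marrow, spleen and lymph node of VQ-D4. The 4 VQ-D5 libraries all lay above the highest control, yet the difference from control did not pass the test, at 2.09 (adjusted p = 0.0944, SE 1.08) with 7 control reads. VQ-D5 was higher than each of the other 4 lines, by 2.94 on the log2 scale over VQ-D1 (adjusted p = 0.0144), 3.44 over VQ-D2 (adjusted p = 0.0113), 3.97 over VQ-D4 (adjusted p = 0.00477) and 4.83 over t-VK12653 (adjusted p = 0.00204). Notch3 passed the filter on low counts only through VQ-D5, where it is high, so these 4 calls are a description and no independent support. VQ-D2 rested on 1 library, replicate 2 at 1.30 CPM. Without it the difference between VQ-D1 and VQ-D5 was lost (adjusted p = 0.0538) and VQ-D2 fell below control (adjusted p = 0.0192) and below VQ-D1 (adjusted p = 0.0242). The difference between VQ-D2 and VQ-D5 was lost without VQ-D2 replicate 3 or 4 (highest adjusted p = 0.0628). With 3 reads over 3 VQ-D4 libraries and 7 over the controls, the ratio of control to VQ-D4 was 3.36, with a 95% counting interval of 0.767 to 20.1. The antisense gene Gm17276 overlaps Notch3 exons.

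Among the ligands, Jag2 (chr12:112907819-112929776, minus strand) showed the widest range of group means outside liver. Jag2 stood at 0.648, 1.36 and 0.263 CPM in the 3 controls. VQ-D1 held 0.740, 0.988, 1.35 and 1.53 CPM, VQ-D2 16.3, 16.2, 6.98 and 16.2 CPM, and VQ-D4 (bone marrow, spleen, lymph node) 1.76, 0.324 and 2.56 CPM. In VQ-D5 the values were 39.05, 30.3, 46.2 and 34.6 CPM, and in t-VK12653 2.36, 3.01, 5.77 and 2.19 CPM. Every library of VQ-D5 lay above every library of VQ-D2, and every library of VQ-D2 above all libraries of the other groups. The group means were 37.6 ± 6.81 CPM (SD, n = 4) in VQ-D5, 13.9 ± 4.62 CPM (SD, n = 4) in VQ-D2 and 0.758 ± 0.559 CPM (SD, n = 3) in controls. Jag2 rose against control in VQ-D5, with a log2 fold change of 5.65 (adjusted p = 6.15e-09, SE 0.53), in VQ-D2, with 4.22 (adjusted p = 5.76e-06, SE 0.62), and in t-VK12653, with 2.11 (adjusted p = 0.0104, SE 0.67). The t-VK12653 call was lost without control replicate 3 (adjusted p = 0.0676). VQ-D1 and VQ-D4 did not pass the test, at 0.73 (adjusted p = 0.407, SE 0.73) and 1.13 (adjusted p = 0.213, SE 0.76). Controls held 7 reads of Jag2 in all, so the size of these fold changes is set by few reads. Between lines VQ-D5 exceeded VQ-D2 by 1.43 on the log2 scale (adjusted p = 0.00156) and VQ-D1 by 4.92 (adjusted p = 8.55e-10). VQ-D1 lay below t-VK12653, at -1.38 (adjusted p = 0.0132, SE 0.45), a call lost without t-VK12653 replicate 3 (adjusted p = 0.0766). VQ-D4 and t-VK12653 did not differ past the threshold (adjusted p = 0.118), but did without VQ-D2 replicate 3 (adjusted p = 0.0471).

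Jag1 (chr2:137081456-137116644, minus strand), the Jagged ligand of many stromal and epithelial cells, was low in all groups and highest in controls. The controls held 4.86, 3.75 and 2.10 CPM of Jag1. Values were 0, 0.689, 0.131 and 0.233 CPM in VQ-D5, 0.149, 0.435, 0 and 0 CPM in VQ-D2 and 0.215, 0.376, 0.339 and 0.548 CPM in t-VK12653. They were 2.22, 1.15, 0.0966 and 0.418 CPM in VQ-D1 and, from bone marrow, spleen and lymph node, 1.13, 0 and 0.640 CPM in VQ-D4. All 3 controls lay above every library of the VQ lines and t-VK12653 except VQ-D1 replicate 1, which held 2.22 CPM. Jag1 fell in VQ-D2, with a log2 fold change of -3.73 (adjusted p = 0.0118, SE 1.22), in VQ-D5, with -3.14 (adjusted p = 0.0113, SE 1.04), and in t-VK12653, with -3.09 (adjusted p = 0.0107, SE 0.99). Those of VQ-D1 and VQ-D4 were -1.94 (adjusted p = 0.0585, SE 0.86) and -2.01 (adjusted p = 0.0827, SE 0.97). The VQ-D5 call was lost without VQ-D5 replicate 1 (adjusted p = 0.0722) and in bone marrow alone (adjusted p = 0.0516). The t-VK12653 call was lost without its replicate 1 (adjusted p = 0.0509) and in bone marrow alone (adjusted p = 0.0526), and VQ-D1 passed without VQ-D4 replicate 3 (adjusted p = 0.0349). No pair of lines passed the threshold for Jag1. Controls, where Jag1 is high, and VQ-D1 replicate 1 carried it past the filter on low counts. Calls that a line is lower than control are therefore a description and no independent support. The summed stromal markers were 22.3 to 58.7 CPM in controls and 1.39 to 78.1 CPM in tumours, and their part was not tested. These sums mix Kitl, at up to 71.8 CPM in tumours and 3.07 CPM in controls, with Cxcl12, at up to 17.8 and 41.95 CPM.

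Dll4 (chr2:119325784-119335962, plus strand), a Delta-like ligand best known from the tips of growing vessels, fell in VQ-D1 and was highest in t-VK12653 outside liver. Control libraries showed 2.92, 0.682 and 3.15 CPM of Dll4. Those of t-VK12653 showed 4.94, 3.39, 8.14 and 12.6 CPM and those of VQ-D5 1.44, 0.459, 1.31 and 0.117 CPM. Dll4 came to 0.298, 0.579, 0.776 and 0.863 CPM in VQ-D2, 0.247, 0.659, 0 and 0.279 CPM in VQ-D1 and 2.39, 5.51 and 0 CPM in bone marrow, spleen and lymph node of VQ-D4. The VQ-D1 values all lay below the lowest control, while VQ-D4 ran from 0 to 5.51 CPM across its 3 sites. The log2 fold change was -3.35 (adjusted p = 0.00870, SE 1.04) in VQ-D1, with 7 reads in its 4 libraries. For t-VK12653 it was 1.33 (adjusted p = 0.171, SE 0.82), for VQ-D4 -0.03 (adjusted p = 0.981, SE 0.80), for VQ-D5 -1.29 (adjusted p = 0.253, SE 0.97) and for VQ-D2 -1.99 (adjusted p = 0.120, SE 1.08), none of which passed. t-VK12653 exceeded VQ-D1 by 4.68 on the log2 scale (adjusted p = 8.07e-05), VQ-D2 by 3.32 (adjusted p = 0.00273) and VQ-D5 by 2.62 (adjusted p = 0.0115, lost at 0.0552 without VQ-D5 replicate 2). VQ-D4 exceeded VQ-D1 by 3.32 (adjusted p = 0.00704, lost at 0.0851 without VQ-D4 replicate 3). VQ-D2 lay below VQ-D4 without VQ-D4 replicate 4 or VQ-D5 replicate 4 (adjusted p = 0.0152 and 0.0469), not in the full set (adjusted p = 0.0750).

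Dll1 (chr17:15367354-15376872, minus strand), the Delta-like ligand of marginal zone B cell differentiation, did not pass the filter on low counts and was not tested. It was listed with 2.59, 1.02 and 0.263 CPM in the controls, 12 reads in all. Its tumour libraries other than liver ran from 0 to 0.557 CPM. The ratio of control to line was 9.53 for VQ-D2, with 3 reads and a 95% counting interval of 2.57 to 52.6. It was 8.64 (1.92 to 79.5) for VQ-D4, with 2 reads, and 6.75 (1.82 to 37.2) for t-VK12653, with 3 reads. VQ-D1 held 10 reads and VQ-D5 4 reads over their 4 libraries. The antisense gene A930024N18Rik overlaps Dll1 exons.

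Rbpj (chr5:53466152-53657362, plus strand), the factor through which cleaved receptors act on DNA, fell in all 5 lines. Rbpj stood at 24.6, 27.3 and 27.1 CPM in the 3 controls. VQ-D1 held 5.92, 7.58, 9.56 and 6.13 CPM, VQ-D2 14.02, 13.2, 11.1 and 11.6 CPM, and VQ-D4 (bone marrow, spleen, lymph node) 7.56, 11.03 and 8.95 CPM. In VQ-D5 the values were 7.91, 16.1, 9.43 and 12.8 CPM, and in t-VK12653 11.6, 12.2, 12.6 and 7.95 CPM. All 3 controls lay above every tumour library. The mean was 26.3 ± 1.47 CPM (SD, n = 3) in controls, and the lines averaged from 7.30 CPM (VQ-D1) to 12.5 CPM (VQ-D2). The log2 fold change was -1.81 (adjusted p = 2.16e-06, SE 0.25) in VQ-D1 and -1.49 (adjusted p = 1.24e-04, SE 0.28) in VQ-D4. It was -1.23 (adjusted p = 2.28e-04, SE 0.25) in t-VK12653, -1.12 (adjusted p = 5.76e-04, SE 0.25) in VQ-D5 and -0.99 (adjusted p = 0.00459, SE 0.28) in VQ-D2. These 5 calls held in all alternatives run for them. Among lines, VQ-D1 lay below VQ-D2, at -0.82 (adjusted p = 0.00653, SE 0.24). It also lay below VQ-D5, at -0.69 (adjusted p = 0.0196, SE 0.24), a call lost without VQ-D1 replicate 1 or VQ-D5 replicate 2 (adjusted p up to 0.181) and on sums per recipient (adjusted p = 0.0617). Its call against t-VK12653, at -0.58 (adjusted p = 0.0368, SE 0.23), was lost without t-VK12653 replicate 1, 2 or 3, VQ-D1 replicate 1, 2 or 4, VQ-D2 replicate 2 or 4, or VQ-D4 replicate 4 (adjusted p up to 0.123), and on sums per recipient (adjusted p = 0.115). VQ-D2 and VQ-D4 differed only without VQ-D5 replicate 1 (adjusted p = 0.0491).

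Hes1 (chr16:30064384-30067796, plus strand), a repressor and the textbook target of Notch, rose in 4 of the 5 lines. The controls held 4.86, 2.05 and 1.58 CPM of Hes1. Values were 12.7, 9.87, 17.2 and 12.5 CPM in VQ-D5, 24.8, 13.2, 15.7 and 10.8 CPM in VQ-D2 and 18.3, 13.5, 12.6 and 10.7 CPM in t-VK12653. They were 1.23, 1.98, 3.77 and 1.53 CPM in VQ-D1 and, from bone marrow, spleen and lymph node, 20.3, 31.5 and 12.8 CPM in VQ-D4. All libraries of VQ-D2, VQ-D4, VQ-D5 and t-VK12653 lay above all controls, and VQ-D1 overlapped the controls. The log2 fold change was 2.97 (adjusted p = 3.37e-05, SE 0.49) in VQ-D4, 2.60 (adjusted p = 2.29e-04, SE 0.52) in VQ-D2, 2.37 (adjusted p = 2.76e-04, SE 0.49) in VQ-D5 and 2.28 (adjusted p = 3.78e-04, SE 0.48) in t-VK12653. That of VQ-D1 was -0.30 (adjusted p = 0.660, SE 0.54). These 4 calls and the lack of one in VQ-D1 held in all alternatives run for them. VQ-D1 was lower than each of the other 4 lines, by 2.57 to 3.27 on the log2 scale (adjusted p at most 1.02e-05), and no other pair of lines differed past the threshold. Set beside the receptors, VQ-D4 and t-VK12653 held Notch1 below control and Hes1 above it, and VQ-D1, whose Notch1 did not differ past the threshold from that of t-VK12653 (adjusted p = 0.855), held Hes1 without a detected difference from controls.

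Hey1 (chr3:8663359-8667256, minus strand), another repressor of the target family, rose in VQ-D2 alone among the comparisons with control. Control libraries showed 1.30, 2.05 and 0 CPM of Hey1. Those of t-VK12653 showed 3.44, 1.69, 0.678 and 1.65 CPM and those of VQ-D5 0.958, 1.61, 0.655 and 1.17 CPM. Hey1 came to 1.64, 5.94, 6.40 and 9.06 CPM in VQ-D2, 0.494, 0.494, 0.483 and 0 CPM in VQ-D1 and 0, 0.324 and 0.320 CPM in bone marrow, spleen and lymph node of VQ-D4. In VQ-D2, 3 of 4 libraries lay above all controls. Replicate 1, from spleen, held 1.64 CPM, within the control range. The libraries of VQ-D2, where Hey1 is high, carried it past the filter on low counts, so calls that VQ-D2 is higher are a description. The log2 fold change was 2.60 (adjusted p = 0.0267, SE 0.98) in VQ-D2, and 1.17 (adjusted p = 0.263, SE 0.87) in t-VK12653, -0.06 (adjusted p = 0.963, SE 1.01) in VQ-D5, -1.22 (adjusted p = 0.293, SE 0.97) in VQ-D1 and -2.53 (adjusted p = 0.109, SE 1.31) in VQ-D4. The VQ-D2 call was lost without control replicate 3, VQ-D2 replicate 2, VQ-D5 replicate 2 or t-VK12653 replicate 1 (adjusted p up to 0.0881), and VQ-D4 passed without control replicate 3 (adjusted p = 0.0333). With 2 reads in VQ-D4 and 10 in controls, the ratio of control to VQ-D4 was 7.20, with a 95% counting interval of 1.53 to 67.6. VQ-D2 exceeded VQ-D1 by 3.82 on the log2 scale (adjusted p = 4.37e-04), VQ-D4 by 5.13 (adjusted p = 2.05e-04) and VQ-D5 by 2.67 (adjusted p = 0.00424). t-VK12653 exceeded VQ-D1 (lost without its replicate 1, adjusted p = 0.0741) and VQ-D4 (lost without VQ-D4 replicate 1, adjusted p = 0.123), and both calls were lost on sums per recipient (adjusted p = 0.0598 and 0.0534). Without VQ-D2 replicate 1, VQ-D2 also exceeded t-VK12653 (adjusted p = 0.0316), and VQ-D5 exceeded VQ-D4 without control replicate 3 (adjusted p = 0.0489).

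**Figure D2:**
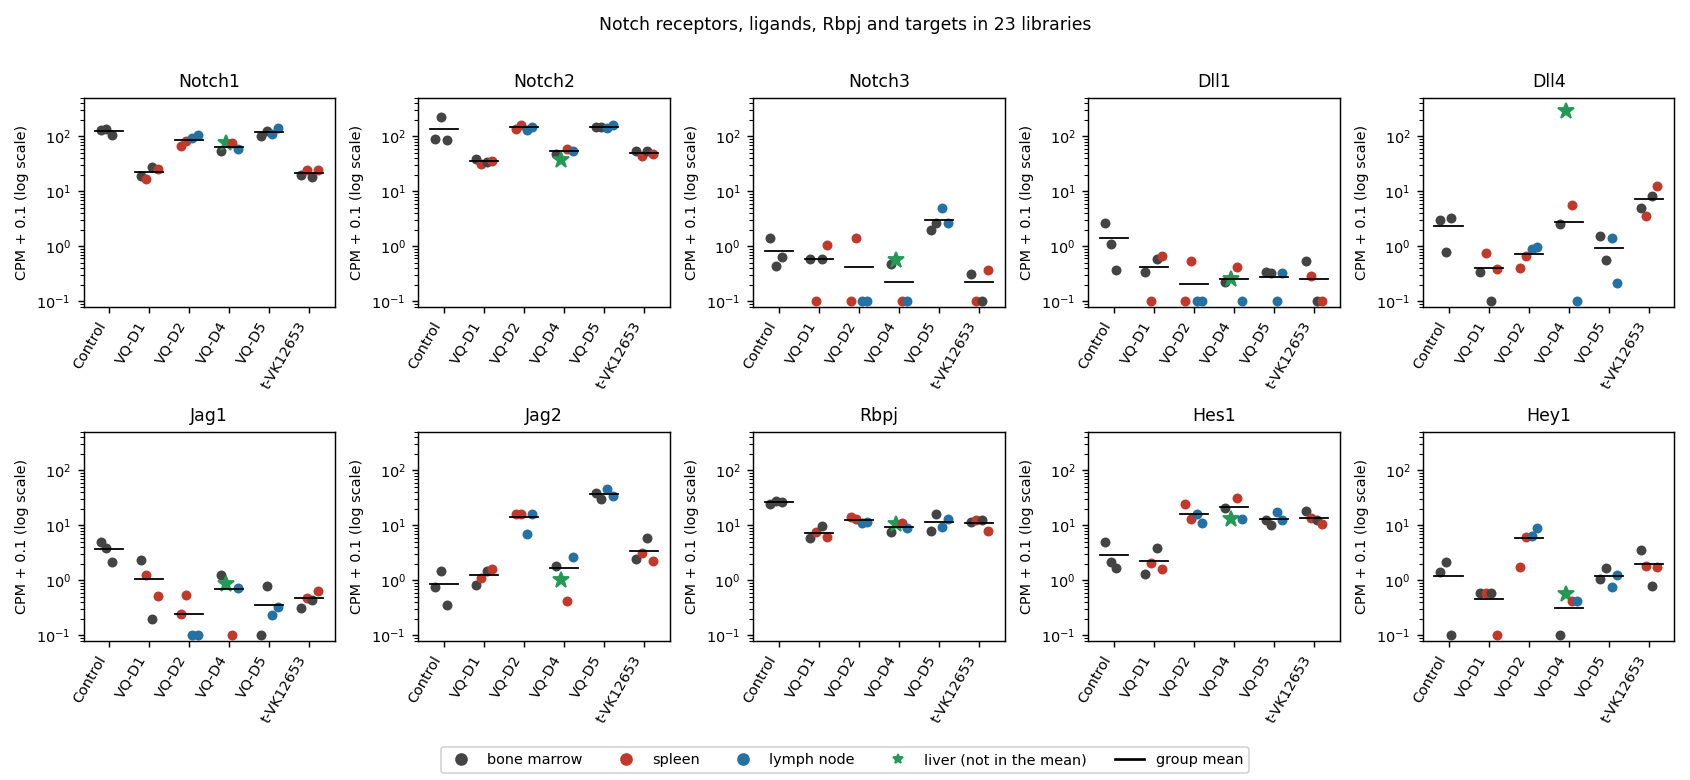
CPM + 0.1 of each gene (log axis, 1 panel per gene) in the 23 libraries, by group along the x axis and coloured by tissue; points are libraries, black lines are group means without the liver library, and the star is the VQ-D4 liver library. The liver star for Dll4 stands at 288 CPM, Jag2 separates VQ-D5 and VQ-D2 from the other groups, and all tumour points of Rbpj lie below the 3 controls.

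Each line was compared with control in 1 fit of the 22 libraries other than liver, with terms for group and tissue, over 12780 genes. VQ-D2 has no bone marrow library, so its comparison with the bone marrow controls rests on the tissue terms of the other lines. Of the 10 genes, 9 passed the filter on low counts. In VQ-D1, 4 of 9 fell (Notch1, Notch2, Dll4 and Rbpj), where 29.9% of all genes tested fell, and none rose, where 29.7% rose. In VQ-D2, 3 of 9 rose (Jag2, Hes1 and Hey1) against 29.4% of all genes, and 3 fell (Notch1, Jag1 and Rbpj) against 28.3%. In VQ-D4, 1 of 9 rose (Hes1) against 27.4%, and 3 fell (Notch1, Notch2 and Rbpj) against 27.3%. In VQ-D5, 2 of 9 rose (Jag2 and Hes1) against 31%, and 2 fell (Jag1 and Rbpj) against 33.4%. In t-VK12653, 2 of 9 rose (Jag2 and Hes1) against 28.6%, and 4 fell (Notch1, Notch2, Jag1 and Rbpj) against 28.7%. The counts of 0 to 4 of 9 genes lie around these shares and are no result about the genes as a group. The median log2 fold change of the 9 genes was -0.06 in VQ-D5, -0.69 in VQ-D2, -1.23 in t-VK12653, -1.33 in VQ-D4 and -1.81 in VQ-D1, while that of all genes lay between -0.07 and 0.02. Each median of the 9 is the value of 1 gene, and the genes were chosen with earlier results known. The medians are thus also no result about the genes as a group.

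**Figure D3:**
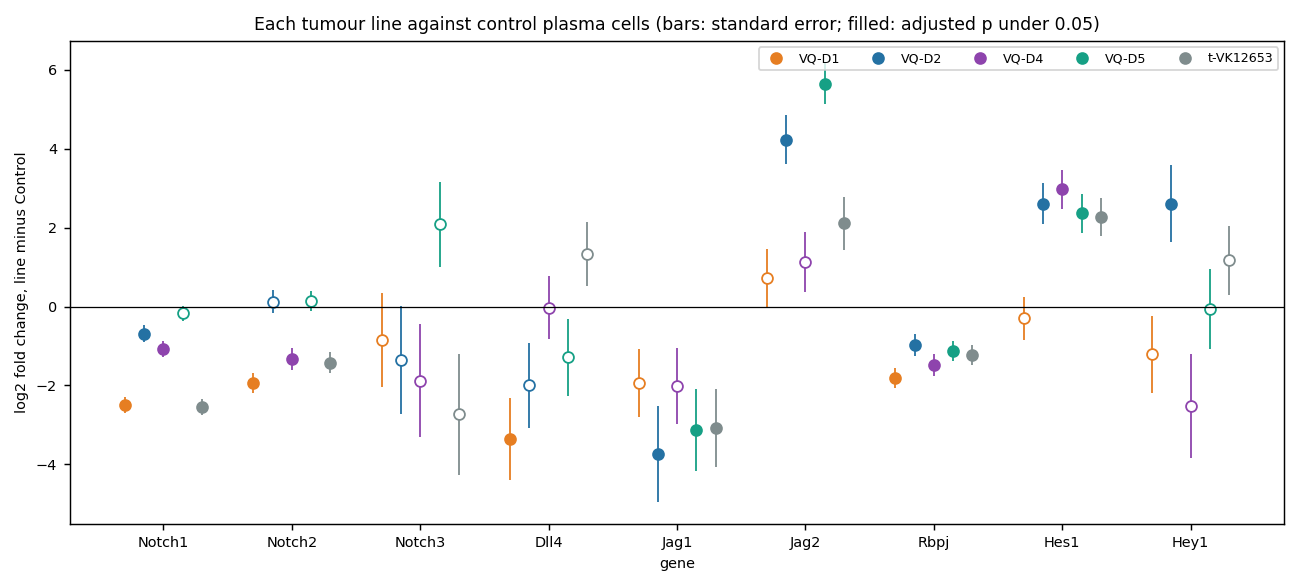
Log2 fold change of each line against control (y axis) for the 9 genes tested (x axis), with standard errors from edgeR as bars; filled points have an adjusted p under 0.05, and colours are lines. Rbpj is below 0 in all 5 lines with filled points, and Hes1 is above 0 with filled points in all lines but VQ-D1.

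To set the VQ lines together against control, the counts of each VQ line were added up, giving 4 sums against 3 control libraries, so that the line is the replicate. The VQ lines differ from controls in Vκ*MYC, in Nras and in being transplanted tumours, which cannot be told apart in this comparison. The line t-VK12653, with no Nras allele, is not in this fit. Of 8 genes tested there, 2 fell, where 10% of 13371 genes fell. They were Jag1, with a log2 fold change of -2.77 (adjusted p = 0.0271, SE 0.70), and Rbpj, with -1.25 (adjusted p = 0.0159, SE 0.27). The controls, where Jag1 is high, carried it past the filter on low counts, so its call is a description and no independent support. None rose, where 14.5% rose. Jag2 was at 4.34 (adjusted p = 0.0739, SE 1.51) and Hes1 at 2.38 (adjusted p = 0.0658, SE 0.79). Both passed with DESeq2 (adjusted p = 0.00391 and 0.0165) and without VQ-D1 (adjusted p = 0.0399 and 0.0135), and Jag2 also without VQ-D4 (adjusted p = 0.0449). Notch1 and Notch2, which differ between the lines, were at -0.64 (adjusted p = 0.373, SE 0.49) and -0.38 (adjusted p = 0.686, SE 0.62). Both calls were lost when any 1 control library was left out, Jag1 with adjusted p up to 0.108 and Rbpj with 0.0715, and Jag1 also in bone marrow alone (adjusted p = 0.0618) and without VQ-D5. All controls are bone marrow and the sums pool sites, so this fit has no tissue term.

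The 5 tumour lines were then compared with each other. A test of any difference among them called 8 of the 9 genes, where it called 88.3% of all genes; Jag1 was not called (adjusted p = 0.411). The Rbpj call (adjusted p = 0.0232) was lost without VQ-D1 replicate 1, VQ-D1 replicate 4 or VQ-D2 replicate 1 (adjusted p up to 0.0886) and on sums per recipient (adjusted p = 0.0847). Over the 10 pairs of lines, 42 of 90 tests were called. Notch1 and Jag2 differed in 8 pairs each, Notch2 in 6, Hey1 in 5, Notch3, Dll4 and Hes1 in 4 each, and Rbpj in 3. Between VQ-D1 and VQ-D2, 6 of 9 genes differed (51.6% of all genes), between VQ-D1 and VQ-D4 3 (41.3%), between VQ-D1 and VQ-D5 6 (58.9%) and between VQ-D1 and t-VK12653 5 (52.2%). In each call of these 4 pairs VQ-D1 was the lower line, but several of these calls were lost in alternatives, as given with each gene. Shares of all genes by direction were not counted for pairs of lines, so no trait of VQ-D1 is read from this. Between VQ-D2 and VQ-D4, 3 genes differed (57.1%), between VQ-D2 and VQ-D5 4 (38.9%) and between VQ-D2 and t-VK12653 4 (63.5%). Between VQ-D4 and VQ-D5, 4 differed (58.9%), between VQ-D4 and t-VK12653 2 (50.1%) and between VQ-D5 and t-VK12653 5 (64.8%). Notch1, Notch2 and Jag2 were all lower in VQ-D1 than in VQ-D2 and VQ-D5.

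No member was called between sites within a line. Spleen against bone marrow called 0 of the 9 genes by edgeR, none also at an unadjusted p under 0.05, where 0% of 12780 genes were called (833 at an unadjusted p under 0.05). Their log2 differences ran from -0.66 (Hey1) to 0.66 (Notch3). Lymph node against bone marrow also called 0 of 9, none at an unadjusted p under 0.05, where 0.0156% of genes were called (875 at an unadjusted p under 0.05). The spleen effect did not differ detectably between VQ-D1 and t-VK12653, the lines with 2 bone marrow and 2 spleen libraries each, for any of 6 genes tested, where 0% of 11846 genes were called (539 at an unadjusted p under 0.05). DESeq2 called 42, 41 and 7 genes of the whole table in these 3 comparisons and no member. For Notch1 the difference was 0.07 (SE 0.14) for spleen and 0.23 (SE 0.16) for lymph node.

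The liver library of VQ-D4 stands apart for 1 member. Dll4 reached 288 CPM there (1861 reads, 183 TPM), 22.8 times the highest of the other 22 libraries (12.6 CPM, in t-VK12653 spleen) and far above the 0 to 5.51 CPM of the other VQ-D4 libraries. This is 1 library, with no replicate, so there is no test. The other 9 genes lay within or near the range of the other VQ-D4 libraries: Notch1 at 76.3 CPM, Notch2 at 36.5 CPM (the others 46.9 to 60.01 CPM), Hes1 at 13.2 CPM, Rbpj at 10.7 CPM, and Notch3, Dll1, Jag1, Jag2 and Hey1 between 0.155 and 0.928 CPM. Of 6373 genes at 20 CPM or more in this library, 6 exceeded 5 times the highest other library. Beside Dll4 they were Cdh5, the cadherin of endothelial junctions, at 734 CPM (87.1 times), Cntn5 at 172 CPM (68.2 times), Tbx19 at 24.8 CPM (45.1 times), Map1b at 266 CPM (7.58 times) and Alb, serum albumin, at 27.9 CPM (5.83 times). The 10 endothelial markers summed to 749 CPM, nearly all of it Cdh5. Kdr held 1 read, Vwf 6 reads and Pecam1 9.44 CPM, and Tek, Emcn, Robo4 and Tie1 were at 0. The 6 hepatocyte markers summed to 42.2 CPM (1.98 to 10.9 CPM in other tumour libraries), with none at 0; their part in Dll4 was not tested. The antisense gene Gm14207 overlaps Dll4 exons and held 10.99 CPM in this library and at most 4.39 CPM in the others.

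**Figure D4:**
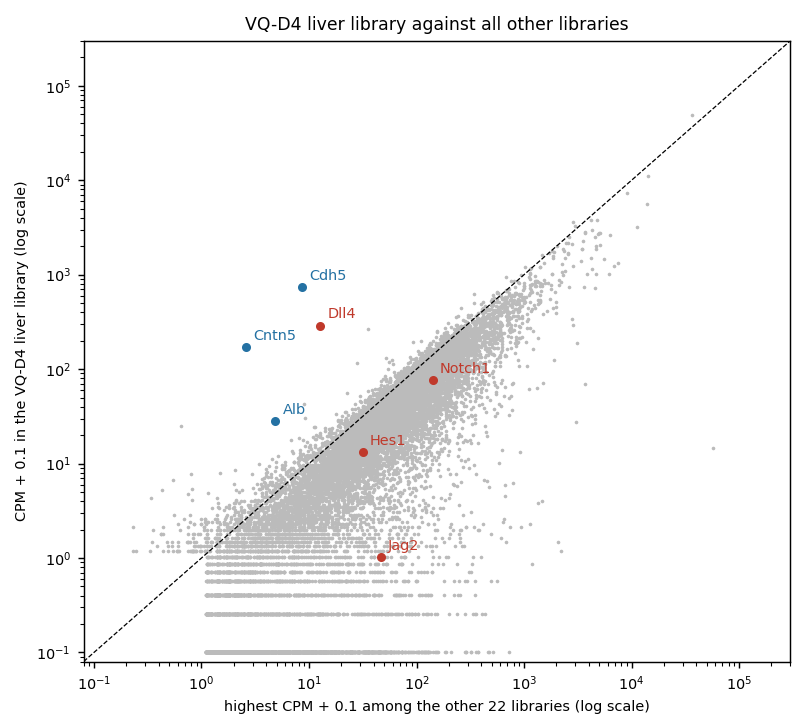
Each gene's CPM + 0.1 in the VQ-D4 liver library (y, log axis) against its highest value among the other 22 libraries (x, log axis); grey points are genes and the dashed line marks equality. Dll4, Cdh5, Cntn5 and Alb stand above the line, and Notch1, Hes1 and Jag2 below it.

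The rest of the pathway was read from 61 genes in 9 lists: a further receptor and ligand, ligand ubiquitin ligases, receptor cleavage, receptor sugar transfer, receptor turnover, nuclear partners and corepressors of Rbpj, and other known targets. Of these, 53 were tested. For t-VK12653 17 rose and 16 fell, for VQ-D5 15 and 21, for VQ-D4 12 and 20, for VQ-D2 8 and 20, and for VQ-D1 10 and 23. Of all genes tested, 27.4% to 31% rose and 27.3% to 33.4% fell in these comparisons. The median log2 fold change of the 53 ran from -0.49 (VQ-D2) to near 0 in t-VK12653, and that of all genes from -0.07 to 0.02. In the comparison of line sums 3 of 55 rose, where 14.5% of all genes rose, and 10 fell, where 10% fell. These counts and those of single lists are given as a description, and no list was tested as a group.

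Among the corepressors of Rbpj, 4 or 5 of the 8 tested fell in each line, beside 27.3% to 33.4% of all genes, and at most 1 rose, beside 27.4% to 31%. Among the nuclear partners, Maml3, a Mastermind coactivator, rose from 17.6 CPM in controls to 107 CPM in VQ-D4, at 2.81 (adjusted p = 1.36e-04, SE 0.49), and to 88.7 CPM in t-VK12653, at 2.27 (adjusted p = 4.85e-04, SE 0.46); Maml3 did not pass the test in the other 3 lines (9.21 to 14.2 CPM). Of the 10 cleavage genes, 3 or 4 rose in each line, near the 27.4% to 31% of all genes, and at most 2 fell, beside 27.3% to 33.4%. Ncstn, a subunit of gamma-secretase, rose from 92.96 to 309.9 CPM in VQ-D1, at 1.71 (adjusted p = 1.27e-10, SE 0.12). Ncstn also rose in VQ-D4 (1.34), t-VK12653 (1.26) and VQ-D5 (0.32), and was at 0.26 in VQ-D2 (adjusted p = 0.0964). The proteases Adam17 and Adam10 rose in the comparison of line sums, at 0.91 (adjusted p = 0.0139, SE 0.19) and 0.66 (adjusted p = 0.0371, SE 0.18). Both calls of the line sums were lost when any 1 control was left out (Adam10 up to adjusted p = 0.135, Adam17 up to 0.0630).

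Mfng, a Fringe enzyme that adds sugar to Notch receptors, rose from 11.7 CPM in controls to 56.7 CPM in VQ-D5, 41.5 CPM in VQ-D1 and 39.1 CPM in VQ-D2, at 2.04 (adjusted p = 4.31e-10, SE 0.16), 1.76 (adjusted p = 5.06e-09, SE 0.16) and 1.46 (adjusted p = 4.66e-07, SE 0.18). Mfng also rose in t-VK12653, to 19.3 CPM, at 0.66 (adjusted p = 0.00196, SE 0.17). In VQ-D4 it fell, to 5.91 CPM (3.90 to 7.67 CPM, against 11.3 to 12.0 CPM in controls), at -1.25 (adjusted p = 2.10e-05, SE 0.20). Poglut1, another receptor-modifying enzyme, rose in all lines but VQ-D4, by 0.91 in VQ-D2 (adjusted p = 0.00117, SE 0.22) and 0.54 to 0.97 over these lines. Neurl3, of the ligand ubiquitin ligase list, fell in the line sums at -4.88 (adjusted p = 0.0107, SE 0.92), and Numbl, of the turnover list, passed the test in t-VK12653 alone among the lines, at 2.23 (adjusted p = 4.47e-06, SE 0.32). Of the other known targets, the cell cycle inhibitor Cdkn1a rose from 3.72 CPM to 60.4 CPM in VQ-D1, at 4.03 (adjusted p = 4.80e-07, SE 0.45). Cdkn1a also rose in VQ-D4, at 2.72 (27.4 CPM), t-VK12653, at 2.32 (18.4 CPM), and VQ-D5, at 2.31 (22.98 CPM), with adjusted p at most 5.29e-04, and was at 2.565 CPM in VQ-D2, where it did not pass (-0.96, adjusted p = 0.208). Ccnd1, a cyclin, rose in VQ-D5 at 2.22 (adjusted p = 4.11e-06, SE 0.32) and in VQ-D4 at 1.05 (adjusted p = 0.0112, SE 0.34). Il2ra, the interleukin 2 receptor alpha chain of lymphocytes, fell from 10.8 CPM in controls to at most 0.450 CPM in every line, and Cr2, a complement receptor of B cells, from 10.3 CPM to 1.03 CPM or less. The controls, where Il2ra, Cr2 and Neurl3 are high, carried these genes past the filter on low counts. Their falls are therefore a description and no independent support. Bcl2, which blocks cell death, ranged widely between lines: 152 CPM in controls, 0.529 CPM in VQ-D5, 1.11 CPM in VQ-D2, 5.48 CPM in VQ-D4, 45.04 CPM in VQ-D1 and 507 CPM in t-VK12653. Cr2 is also on the B cell marker list, whose sum was higher in controls; that list's part was not tested.

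Hey2, the relative of Hey1 that was singled out after its values were seen, is also in that target list. No read of it was found in the 3 controls, whose limit for 3 counts over the group is 0.305 CPM. Its values were 4.73, 8.28, 9.16 and 8.23 CPM in t-VK12653, 0.240, 1.38, 1.70 and 0.699 CPM in VQ-D5, 7.93, 7.14 and 7.36 CPM in VQ-D4 without liver (7.74 CPM in liver), 2.39, 3.04, 1.55 and 1.94 CPM in VQ-D2 and 9.38, 9.06, 9.08 and 9.90 CPM in VQ-D1. The mean was at least 30.6-fold higher than that control limit in VQ-D1, 24.9-fold in t-VK12653, 24.5-fold in VQ-D4, 7.30-fold in VQ-D2 and 3.29-fold in VQ-D5. All 5 comparisons with control passed the test, the highest adjusted p being 0.00117. Hey2 passed the filter on low counts only through tumour libraries and was picked by its values, so these calls are a description and no independent support. VQ-D1, the line without a Hes1 rise, held the highest mean Hey2 of the 5 lines, at 9.35 CPM. Means were 7.60 CPM in t-VK12653 and 7.48 CPM in VQ-D4, which both had a Hes1 rise. Replicate 3 of t-VK12653 (9.16 CPM) lay within the VQ-D1 range.

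**Figure D5:**
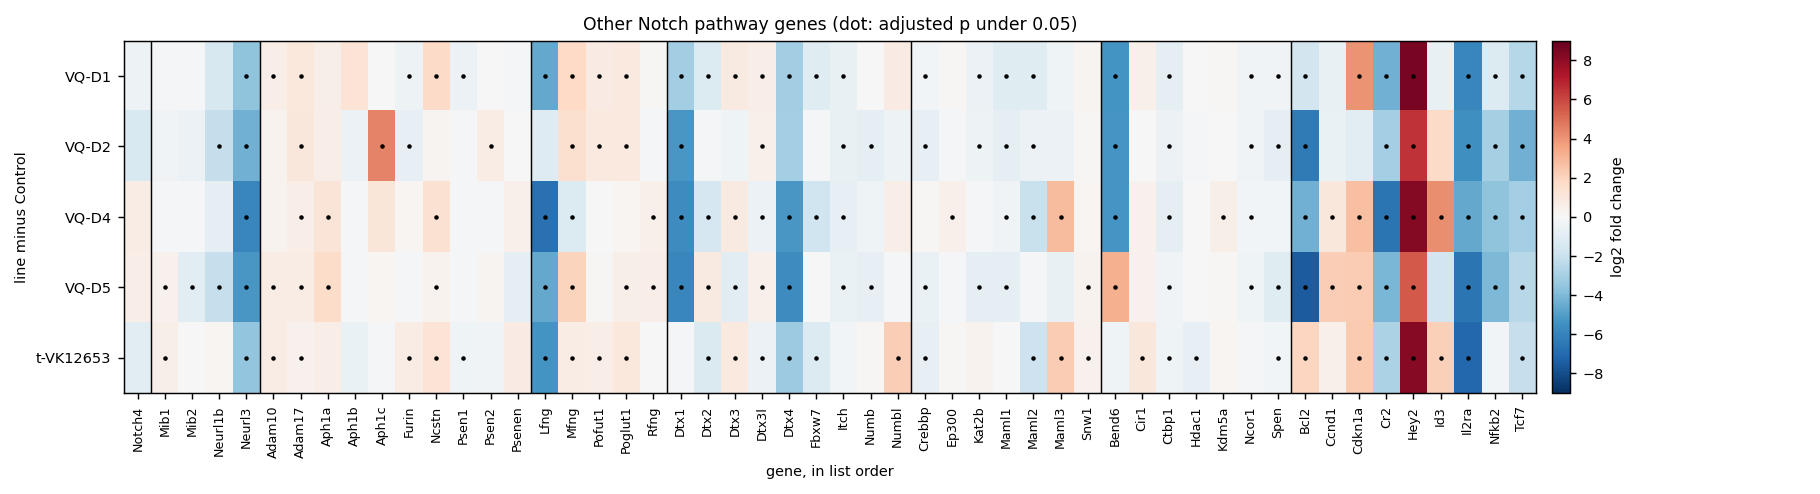
Log2 fold change against control (colour) of other Notch pathway genes tested (columns, split by list) in each line (rows); a dot marks an adjusted p under 0.05. Hey2 is red with dots in all rows, and its fitted values depend on the prior count because the controls hold no read. Il2ra and Cr2 are blue with dots in all rows, and both passed the filter on low counts only through the controls, where they are high.

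Genes with the most similar pattern were ranked by Pearson correlation of log2 CPM over the 22 libraries other than liver, among 9820 genes, as a description; the libraries of a line share donor and recipients. Nrg2 (0.957), Ryk (0.954) and Mbnl2 (0.946) were nearest to Notch1, and Akap12 (0.956), Exoc6 (0.955) and Map4k4 (0.934) to Notch2. For Jag2 they were Rbm15 (0.953), Cebpz and Lap3 (0.95 each). Dll4 was most like Sos2 (0.903), Dpp7 and Pgrmc1. Hes1 was most like Pfkm (0.916), Homer2 and Tmem238, Hey1 most like Robo1 (0.81), Ddr2 and Pigg, and Rbpj most like Antxr2 (0.886), Atp8a1 and Git2.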

How the data were processed

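Per the file headers, the deposited tables list 24063 gene symbols, each with its count, FPKM and TPM. The submitters' processing notes name the builds mm10 and GRCm38 and the tools featureCounts, STAR and DESeq2 (versions, annotation and strand setting: not given in the sources used here). Raw read counts, as deposited, fill the first of these columns. The deposited FPKM and TPM columns are scaled to length and depth by the authors, and TPM served only for levels between genes, with FPKM as an alternative.

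Libraries were prepared from column-purified RNA with a strand-keeping kit for very small total RNA inputs, per the labels' protocols. Counts were tested in R 4.3.3 with edgeR 4.0.16 (robust quasi-likelihood F-test, TMM scaling, filterByExpr with a count minimum of 10 and a total minimum of 15, Benjamini-Hochberg adjustment over all genes tested, threshold 0.05); DESeq2 1.42.0 was an alternative. The scripts were tested on simulated data. Standard errors come from the fold change and the F statistic. The liver library was left out of the fits. Total counts of 2685579 to 10047314 limit the precision of genes with few reads; intervals and floors (3 counts) cover counting error only. The libraries of a group differed by more than counting alone gives (33 pairs, chi-square over its degrees of freedom 4.57 to 22.3). Loci are from GENCODE on GRCm38. Other alternatives were RLE scaling, no filter, no tissue term, sums per recipient, recipient or replicate block, bone marrow alone, library sizes without abundant non-coding RNA, and leaving out each library.

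The members and lists were chosen with earlier results of these data known. All 10 members are named; of the pathway lists, up to 3 genes per direction and comparison with the largest fold change, whose higher group averaged 10 CPM or more; for likeness, the 3 genes with the highest correlation. A gene of the pathway lists is not reported here.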

Additional observations from a re-analysis of the deposited data

Results flagged for a closer look

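In 5 of 40 groups of 4 libraries, 1 library's gap to its nearest neighbour took more than 0.829 of the group's range. Chance alone gives about 1 in 20 such groups where values are normally distributed, which counts of a few reads are not. Where the other 3 libraries hold 0, the gap is the whole range. No excess over chance can therefore be read from the 5. Notch3 was at 1.30 CPM in VQ-D2 replicate 2, where the other 3 libraries held 0. Dll1 was at 0.435 CPM in the same library, again with 0 in the others. That library detected 17188 genes, the most of any, against 13943 to 14402 in the other VQ-D2 libraries, and the part of this was not tested. Dll1 was at 0 CPM in VQ-D5 replicate 3, and Hey1 at 0 CPM in VQ-D1 replicate 4. Jag2 was at 6.98 CPM in VQ-D2 replicate 3, a lymph node library, against 16.2 to 16.3 CPM in the other 3. The first 4 of these rest on a few reads.

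In the VQ-D4 liver library, which the comparisons reported leave out, Dll4 was at 288 CPM and Hes1 at 13.2 CPM, both above the highest control (3.15 and 4.86 CPM).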

How the results depend on the processing

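Over the results for single members, 4839 alternative values kept their direction and side of the threshold where a call was involved, 56 gained a call, 53 lost one, and no called value changed sign. For the pathway genes named, 1204 of 1220 kept theirs and 16 lost a call (Adam10 10, Adam17 3, Hey2 3). The count of members called in the comparison of VQ line sums with control, 2, became 1 in bone marrow alone, 4 with DESeq2, 6 where the library fit gave the lines' mean, 4 without VQ-D1 and 1 without VQ-D5, and ran from 0 to 2 when 1 library was left out, with 0 without any 1 control. The count of all genes called there, 3285, became 2027 in bone marrow alone and 7779 with the mean of the lines, and 1310 to 1387 without 1 control. RLE scaling moved the median of all genes by -0.11 there. The 2 genes called for lymph node against bone marrow became 41 with DESeq2, 264 without the filter, 35 with recipients as a block, and 0 to 7 without 1 library. The 0 for spleen against bone marrow became 42, 221 and 20 in the same alternatives and up to 22 without 1 library, and the 0 for the difference in spleen effect 7 with DESeq2 and 81 without the filter. Adding the liver library to the VQ-D4 sum moved Dll4 from -1.02 to 3.47 on the log2 scale (adjusted p = 0.290), with no call either way. Among the 8 members with a promoter entry, the shorter letters TGGGAA were found for 1 and GTGGGAA for 0. The cause of these changes was not tested.

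Replicate numbers were not taken to pair the libraries, since the labels tie them to no shared animal and not every correlation was above 0.1: deviations from the group means correlated by 0.0108 on average between libraries of the same number in other groups (-0.226 to 0.164) and by -0.00352 between other numbers, although 12 of 22 libraries had their best partner under the same number, a hint from the data and not from the design. With the replicate block, 6 members were called in the comparison of VQ lines with control and 7543 genes in all, 5 genes for lymph node and 24 for spleen, and Notch1 in VQ-D2 against control had adjusted p = 0.0525. Few reads limit Notch3, Dll1, Dll4, Jag1 and Hey1, and Jag2 in controls.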
